A study of Mus musculus with 2 samples.

Results

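The troponin and tropomyosin genes encode the calcium switch of the thin filament of striated muscle. They were followed here as 10 genes: 3 of troponin T (Tnnt1, Tnnt2, Tnnt3), 2 of troponin I (Tnni1, Tnni2), 2 of troponin C (Tnnc1, Tnnc2) and 3 of tropomyosin (Tpm1, Tpm2, Tpm3). Members were taken by gene symbol, and all 13 probe sets annotated to 1 of these symbols were used, out of 35557 on the array and 21789 with 1 symbol. The table as a whole held 19938 genes. Tpm3 had 4 probe sets and the other 9 genes 1 each.

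The RNA came from tibialis anterior muscle of the mouse hindlimb, a muscle of mostly fast fibres, 7 days after 50 µl of 10 µM cardiotoxin was injected on the right side. Cardiotoxin, a peptide of cobra venom, kills muscle fibres, which satellite cells then rebuild. The mice were Mef2a +/+ (wild type) or Mef2a -/- (Mef2a KO), both of strain 129Sv/C57BL6, 2 to 4 months old and of both sexes, and all muscles of both genotypes were injured. Equal amounts of RNA from 5 mice were pooled within each genotype, and each pool was measured on 1 array, so no value below has a replicate error and no test was possible. MEF2A is a transcription factor that binds A/T-rich sites of many muscle genes, and the comparison asks how regenerating muscle differs without it.

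Values are log2 expression values made by RMA, with a range of 0.14 to 13.08 for wild type and 0.13 to 13.17 for the other pool. Genes whose higher value was at least 4.40, the median of the table, were counted as measurable. Mef2a itself read 8.92 in wild type RNA and 9.06 in the pool labelled as knockout. Since the deleted part of the gene is not given in the labels, this probe set does not check the genotype, and the pool is called KO-labelled throughout. All 8 skeletal fibre markers, among them Acta1, Ckm and Myh4, were measurable in both pools, whereas 6 of 7 heart muscle markers lay below 4.40 in both.

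In a resting fibre, tropomyosin lies along the actin filament and covers the sites that myosin heads would bind. Troponin T ties the troponin complex to tropomyosin, troponin I holds the complex in the blocking position, and troponin C binds calcium and releases the block. Fast fibres use Tnnt3, Tnni2 and Tnnc2. Slow fibres use Tnnt1, Tnni1 and Tnnc1, of which Tnnc1 is also the troponin C of the heart. Tnnt2 is the troponin T of the heart and is also made by embryonic and regenerating skeletal muscle. Tpm1 encodes the main tropomyosin of fast fibres and heart, Tpm2 a tropomyosin of both fibre types, and Tpm3 the slow tropomyosin as well as short forms in most other cells.

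As deposited, no member differed between the pools by 1.5-fold. At least 1.5-fold higher in the KO-labelled pool were 0 of the 10 members, against 6.45% of 11787 measurable genes, and at least 1.5-fold lower were 0 of 10, against 1.90%. Tpm3, by its probe set of highest signal, did pass 1.5-fold, at 0.61, once differences were centred on the median of all genes. Past a lower limit of 0.32 on the log2 scale, 1 member was higher (Tpm3) and 0 were lower, against 16.7% and 10.3% of measurable genes. All 10 members were measurable. Their median difference was 0.0036 on the log2 scale, that of measurable genes 0.026.

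The small differences ran along the isoform classes. All 4 slow members read higher in the KO-labelled pool as deposited (53.3% of measurable genes did). However, Tnnt1 turned to -0.0087 when the trend of the difference on signal was removed. Tpm3 counts here by its probe set of highest signal, and its second probe set was level (-0.0063). All 4 fast members read lower (44.5% of measurable genes did), although Tpm1 turned to 0.012 when differences were centred on the median of all genes, and Tnnt3 (0.067), Tnnc2 (0.047) and Tpm1 (0.22) all turned when they were centred on other adult sarcomere genes. The median difference was 0.18 for the slow and -0.18 for the fast class. With troponins alone, an alternative chosen after seeing the data that leaves out the tropomyosins, the medians were 0.11 and -0.19. The single cardiac-embryonic gene, Tnnt2, and the shared gene, Tpm2, lay between them. RNA of whole muscle was measured, so fewer fibres of a kind and less RNA per fibre cannot be told apart.

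**Figure D1:**
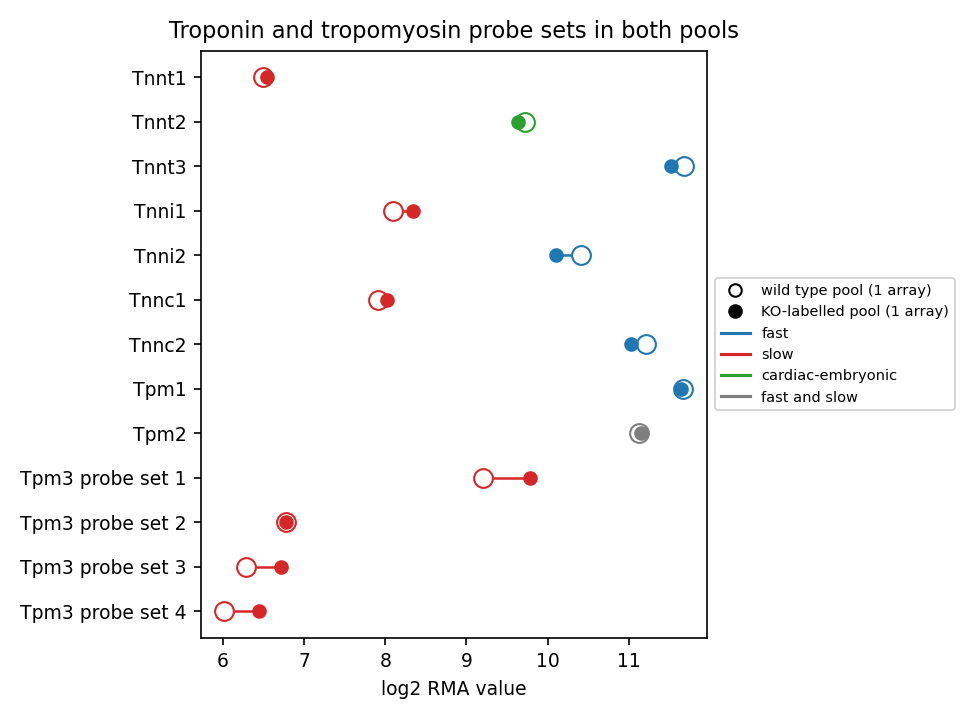
Each row is 1 probe set and the horizontal axis is its log2 RMA value, with an open circle for the wild type pool and a filled circle for the KO-labelled pool (1 array each), coloured by isoform class. The widest gap is that of Tpm3 probe set 1 (9.20 and 9.78), and in Tpm1, Tpm2 and Tpm3 probe set 2 the circles coincide; values of different probe sets cannot be compared with each other.

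RefSeq promoters (GRCm38.p6) were at hand for 8 members (not for the fast Tnni2 and Tnnt3), in 11 windows of 250 bases before to 50 after an annotated start. The 100 bases before the start are shown for the 5 troponin genes among them, so that slow, fast and cardiac-embryonic isoforms can be read side by side. Capitals mark CATTCC (the MCAT motif bound by TEAD factors), CAGCTG (an E-box bound by myogenic factors), TATTTTTA (an A/T-rich run) and TATAAA (the TATA box), on either strand. CAGCTG reads the same on both strands, and the other motifs did not overlap it. Tnni1 and Tnnt2 each have an upstream and a downstream annotated start, and the stretch before the upstream one is shown.
Tnni1, chr1:135799321-135799420, plus strand: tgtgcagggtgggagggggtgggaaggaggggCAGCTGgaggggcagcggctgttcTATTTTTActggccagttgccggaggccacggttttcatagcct
Tnnc1, chr14:31208212-31208311, plus strand: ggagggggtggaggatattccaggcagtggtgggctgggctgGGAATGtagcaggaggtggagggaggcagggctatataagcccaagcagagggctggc
Tnnt1, chr7:4515976-4516075, minus strand: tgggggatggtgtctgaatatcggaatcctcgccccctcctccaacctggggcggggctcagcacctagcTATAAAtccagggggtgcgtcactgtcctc
Tnnc2, chr2:164779735-164779834, minus strand: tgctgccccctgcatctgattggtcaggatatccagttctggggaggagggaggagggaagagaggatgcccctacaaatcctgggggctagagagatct
Tnnt2, chr1:135836234-135836333, plus strand: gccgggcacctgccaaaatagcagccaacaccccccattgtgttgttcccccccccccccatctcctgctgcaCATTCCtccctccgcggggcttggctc

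The MEF2 consensus was found in 0 of the 11 member windows and in 3.19% of all 32817 promoter windows. This says only that no stretch matching the consensus lies in the member windows, not that no similar A/T-rich stretch does. TATTTTTA was in 2 of 11 member windows, both of Tnni1, against 2.72% of all, and was searched for after the sequences had been seen. The 2 Tnni1 windows overlap, and this is 1 site counted in both. It lies 44 bases before the upstream start and 134 before the downstream one. CATTCC was in the windows of Tnnt2 (27 bases before the start), Tnnc1 (58) and Tpm1 (56), which is 3 of 11 member windows against 14.7% of all. CAGCTG was in 5 of 11, those of Tnni1, Tnnt2, Tpm2 and Tpm3, against 16.3% of all, with 1 Tnni1 site again counted in both of its windows. TATAAA was in 1 of 11, that of Tnnt1, against 13.6% of all.

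Among the troponin T genes, the fast Tnnt3 read 11.69 in wild type and 11.52 in the KO-labelled pool. The log2 difference was -0.17, 1.12-fold lower, but 0.067 relative to other adult sarcomere genes. As large a difference was seen in 55.0% of measurable genes. The slow Tnnt1 read 6.49 in the wild type and 6.55 in the KO-labelled pool, and 83.8% of measurable genes equalled or passed its difference of 0.054, which turned to -0.0087 with the signal trend removed. The cardiac-embryonic Tnnt2 read 9.72 and 9.64 in the same order. Its difference of -0.088 was equalled or passed by 74.4% of measurable genes and became 0.15 relative to the adult sarcomere genes.

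Tnnt2 can be set beside other genes of young fibres. Of 12 such genes, all measurable, 5 were higher and 7 lower in the KO-labelled pool, with a median of -0.093 (0.14 relative to the adult sarcomere genes). The neonatal myosin Myh8 (10.73 against 10.10) and the embryonic myosin Myh3 (9.82 against 9.39) differed by -0.63 and -0.44, and Mymk, the fusion protein myomaker, by 0.24. Actc1, the cardiac actin that young skeletal fibres also make, read 12.24 and 12.39. The difference of Tnnt2 was thus close to the median of that list and smaller than those of both developmental myosins.

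The troponin I genes were the furthest apart of the troponins. Tnni2, the fast inhibitory subunit, read 10.41 in the wild type and 10.10 in the KO-labelled pool. The difference of -0.31 (1.24-fold lower) was the lowest among the members, and it stayed below 0 under the 3 other centrings and with the signal trend removed. Tnni1, the slow inhibitory subunit, read 8.09 in the wild type and 8.34 in the KO-labelled pool. It was higher by 0.25 (1.19-fold) and stayed above 0 under the same settings. Differences of that size were still common: 28.0% of measurable genes equalled or passed Tnni2, and 38.6% Tnni1.

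The troponin C genes differed by less. Tnnc2, the fast calcium-binding subunit, read 11.22 in the wild type and 11.03 in the KO-labelled pool, a 1.14-fold lower value as deposited that became 0.047 on the log2 scale relative to the adult sarcomere genes. Tnnc1, the slow and cardiac subunit, read 7.91 in the wild type and 8.03 in the KO-labelled pool, higher by 0.11 (1.08-fold). As large a difference was seen in 51.0% of measurable genes for Tnnc2 and in 67.9% for Tnnc1.

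**Figure D2:**
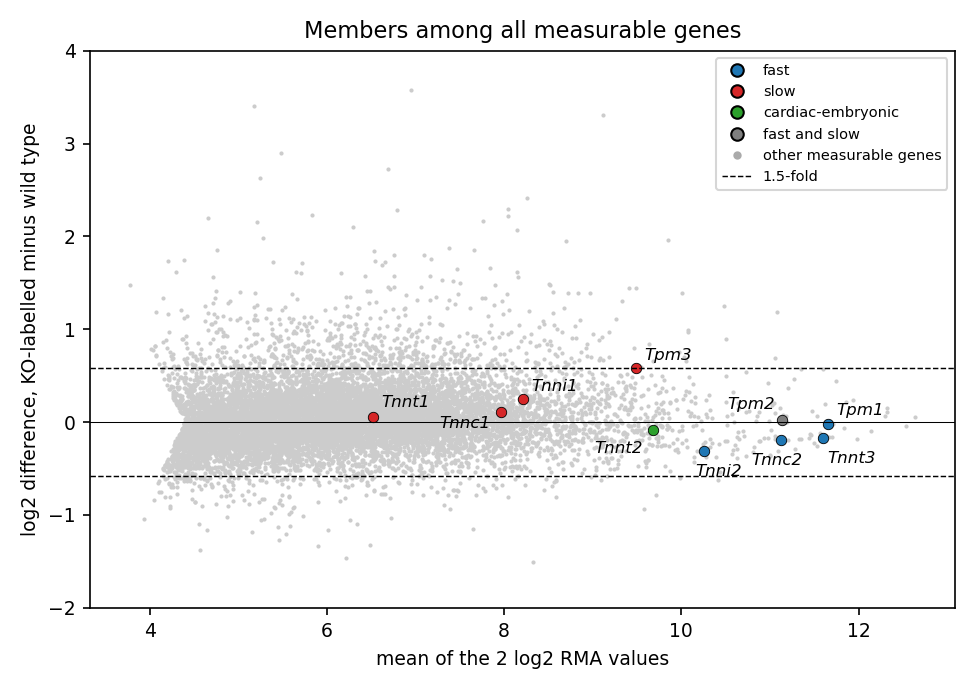
Each grey point is 1 of the 11787 measurable genes, with the mean of its log2 RMA values across and the log2 difference (KO-labelled minus wild type) up; members are coloured by isoform class, and the dashed lines mark 1.5-fold. All 10 members lie within the lines, Tpm3 (0.58) at the upper one, and 8.41% of measurable genes differ by as much as Tpm3.

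Troponin I and T genes lie in pairs in the mouse genome, and of the 3 pairs 1 joins genes of the same isoform class. In the RefSeq annotation of GRCm38.p6, 1 gene (Lad1) lies between the slow Tnni1 and the cardiac-embryonic Tnnt2, which differed by 0.25 and -0.088. Lsp1 and Prr33 lie between the fast Tnni2 and Tnnt3, which differed by -0.31 and -0.17. No gene lies between the slow Tnnt1 and Tnni3, the cardiac troponin I. Tnni3 read 4.40 in the wild type and 4.18 in the KO-labelled pool, the former just at the limit of measurable genes. The genes in between were looked up for their position, after the members' values were known. Lsp1, a leukocyte actin-binding protein, read 9.13 in the wild type and 9.56 in the KO-labelled pool, Prr33 6.63 and 6.08, and Lad1 3.78 and 3.30, the last below the limit in both pools. Neighbours of the fast pair thus differed in both directions.

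Of the tropomyosin genes, Tpm1 and Tpm2 hardly differed. Tpm1 read 11.66 in the wild type and 11.65 in the KO-labelled pool, with a difference of -0.017 whose sign turned under each of the 3 other centrings and with the signal trend removed. Tpm2 read 11.12 in the wild type and 11.15 in the KO-labelled pool, differing by 0.024. At least 91.8% of measurable genes differed by as much as either. Both probe sets cover many transcripts, 20 accessions for Tpm1 and 8 for Tpm2, and Tpm1 and Tpm2 are also made by smooth muscle and other cells. Of 9 measurable smooth muscle and pericyte markers, 6 were higher and 3 lower, with a median of 0.066. Their part in the Tpm1 and Tpm2 values was not tested.

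Tpm3 was the member with the largest difference, and its probe sets differed unequally. The probe set of highest signal read 9.20 in the wild type and 9.78 in the KO-labelled pool, higher by 0.58 (1.497-fold), just short of 1.5-fold. The probe set second in signal read 6.78 in the wild type and 6.77 in the KO-labelled pool, differing by -0.0063. The third read 6.28 and 6.71, higher by 0.43, and the fourth read 6.01 and 6.45, also higher by 0.43. Thus 3 of 4 probe sets were higher, by 1.35-fold to 1.497-fold, and 1 was level. The mean of all 4 was higher by 0.36.

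The probe sets of Tpm3 are annotated to overlapping sets of transcripts. The first lists 13 accessions, and these include all 3 of the second, all 8 of the third and all 3 of the fourth, the last of which also lie within the third. The level second probe set shares 0 accessions with the third and 0 with the fourth. RefSeq also names 3 pseudogenes of Tpm3 (Tpm3-rs2, Tpm3-rs3 and Tpm3-rs7) and none of this naming for the other members, so signal from near-identical copies cannot be told apart from that of the gene, and the Tpm3 values are uncertain for that reason. The gene has an upstream and a downstream annotated start, and the 100 bases before each are shown. No value here ties a probe set to either start. Neither stretch holds any of the motifs above, so none is in capitals.
Tpm3 upstream start, chr3:90072551-90072650, plus strand: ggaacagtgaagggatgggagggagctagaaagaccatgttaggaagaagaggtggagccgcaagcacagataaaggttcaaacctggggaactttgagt
Tpm3 downstream start, chr3:90079421-90079520, plus strand: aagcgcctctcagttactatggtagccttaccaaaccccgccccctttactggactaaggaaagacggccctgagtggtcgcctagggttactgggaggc

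Because Tpm3 is also made outside muscle, it is given beside other actin filament genes of non-muscle cells. Of 11 such genes, all measurable, 10 were higher in the KO-labelled pool and 6 of these at least 1.5-fold, with a median of 0.58. With the signal trend removed, 3 were at least 1.5-fold higher and the median was 0.54. Their summed level, on the log2 scale and weighted to the brightest probe sets, was 12.48 in the wild type and 12.96 in the KO-labelled pool. Actn1, a non-muscle alpha-actinin, was higher by 0.91, Flna, the actin crosslinker filamin A, by 0.71, and Cfl1, the actin-severing cofilin, by 0.69. Tpm4, a tropomyosin mostly of non-muscle cells, read 8.40 and 8.98, higher by 0.59. The Tpm3 probe sets, in order of signal, were at 0.58, -0.0063, 0.43 and 0.43 (0.36 as their mean), and Tpm1 and Tpm2 at -0.017 and 0.024.

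Markers of other cell types also differed in the same RNA. All 15 macrophage markers were measurable, and all 15 were at least 1.5-fold higher in the KO-labelled pool, with a median of 1.06. None lay below the limit in both pools. Their summed level, which the brightest probe sets such as that of Lyz2 (10.49 and 11.67) weigh on most, was 12.08 in the wild type and 13.33 in the KO-labelled pool. Among 9 fibroblast markers 7 were higher, with a median of 0.12 and a summed level of 13.83 and 13.99. The 8 skeletal fibre markers were all lower, with a median of -0.17 (0.065 relative to the adult sarcomere genes, which include 5 of these 8) and a summed level of 14.78 and 14.64. The part of these cell types in the differences of Tpm3 and the troponins was not tested.

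**Figure D3:**
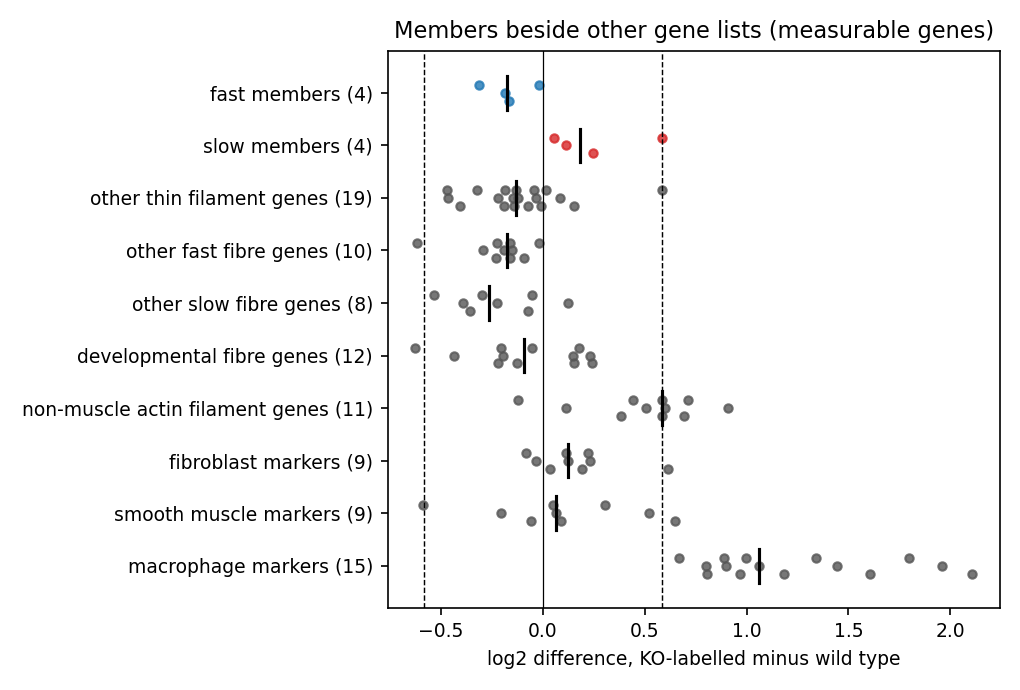
Each point is 1 measurable gene, placed by its log2 difference (KO-labelled minus wild type), with the list and its number of genes on the vertical axis, a black bar at the list's median and dashed lines at 1.5-fold. The fast members sit with the other fast fibre genes (medians -0.18 and -0.18), while the slow members have a median of 0.18 and the other slow fibre genes -0.26; the macrophage markers lie highest (1.06). Relative to 21 other adult sarcomere genes the fast members turn to a median of 0.057.

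The other genes of the thin filament read lower more often than higher. Of 20 such genes 19 were measurable, of which 4 were higher and 15 lower, with a median of -0.13 (0.10 relative to the adult sarcomere genes, which include 4 of them). Tpm4, also counted above among the non-muscle actin filament genes, was the only one past 1.5-fold, at 0.59. It fell short of that with the signal trend removed (0.55). A probe set annotated to both Tpm4 and Gm7809 (9.26 and 9.91), left out of the counts, was higher by 0.64. Tmod4, a cap of the slow-growing filament end, differed by -0.47 (9.74 against 9.28), as did Kbtbd13, a thin filament protein of the kelch family (5.16 against 4.69). Acta1, the skeletal actin on which troponin and tropomyosin sit, read 12.56 and 12.52, a difference of -0.036. Neb, the giant ruler protein nebulin, read 11.42 and 11.24.

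Genes of fast fibres outside the thin filament gave differences like those of the fast troponins. All 10 were lower, with a median of -0.18 (0.058 relative to the adult sarcomere genes, which include 7 of these 10), and 1 of them, the fast myosin Myh2 (9.40 against 8.78), was at least 1.5-fold lower. Actn3, the fast alpha-actinin, differed by -0.29 and Casq1, the calcium store protein of fast fibres, by -0.23. The median of the fast members was the same to the second decimal. Lower values were not particular to fast genes. The median was -0.26 for other slow fibre genes (1 higher, 7 lower) and -0.23 for the adult sarcomere genes (1 higher, 20 lower).

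Genes of slow fibres outside the thin filament mostly did not share the direction of the slow troponins. Of 10 such genes 8 were measurable, of which 1 was higher and 7 lower, with a median of -0.26 (-0.029 relative to the adult sarcomere genes, which include 1 of them). The oxygen store protein myoglobin, Mb, differed by -0.53 (10.71 against 10.18), Mybpc1, the slow myosin-binding protein C, by -0.36, and the slow myosin gene Myh7b by -0.39 (4.63 against 4.24, the latter below the limit). Csrp3, a Z-disc protein, was the 1 measurable gene that was higher, by 0.12. The slow myosin Myh7 read 4.98 and 4.68, close to the limit of 4.40. The slow myosin light chain genes Myl2 (3.04 and 3.28, higher by 0.24) and Myl3 (3.46 and 3.27) lay below the limit in both pools. With them the median of all 10 was -0.21. The list median thus rests mainly on genes other than the slow myosins, whose signal was low. Whether the slow members differ from these genes could not be tested with 1 array per genotype.

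Differences between partner isoforms do not change when an array is scaled by a single factor. For troponin I, the slow minus the fast difference was 0.56, so that the KO-labelled pool had a 1.47-fold higher ratio of Tnni1 to Tnni2. For troponin C (Tnnc1 and Tnnc2) it was 0.30, a 1.23-fold higher ratio, and for troponin T (Tnnt1 and Tnnt3) 0.22, a 1.17-fold higher ratio. Tnnt2 against Tnnt3 gave 0.080. For tropomyosin (Tpm3 and Tpm1) it was 0.60, a 1.52-fold higher ratio, but 0.38 with the mean of all Tpm3 probe sets. This contrast depends on the probe set, since the second Tpm3 probe set differed by -0.0063 and Tpm1 by -0.017. All 5 contrasts were above 0, and the contrasts of Tnnt1 and Tnnt2 share Tnnt3. With the signal trend removed, which changes with level, they were 0.51, 0.23, 0.12, 0.034 and 0.55 in the order given.

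Relative to other sarcomere genes the picture shifted upward as a whole. The median of 21 adult sarcomere genes that are not members was -0.23, with 20 of 21 lower. Centred on it, Tnnt3 differed by 0.067, Tnnc2 by 0.047 and Tnni2 by -0.078, so that the fast troponins lay near the other sarcomere genes. The slow troponins then differed by 0.29 (Tnnt1), 0.35 (Tnnc1) and 0.48 (Tnni1). Tpm3, by its probe set of highest signal, differed by 0.82, past 1.5-fold, but its second probe set was level as deposited (-0.0063). This centring raises every gene by the same amount. Tpm1 and Tpm2 were at 0.22 and 0.26. The difference between the class medians was 0.36, which no centring can change. With the signal trend removed it was 0.28.

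**Figure D4:**
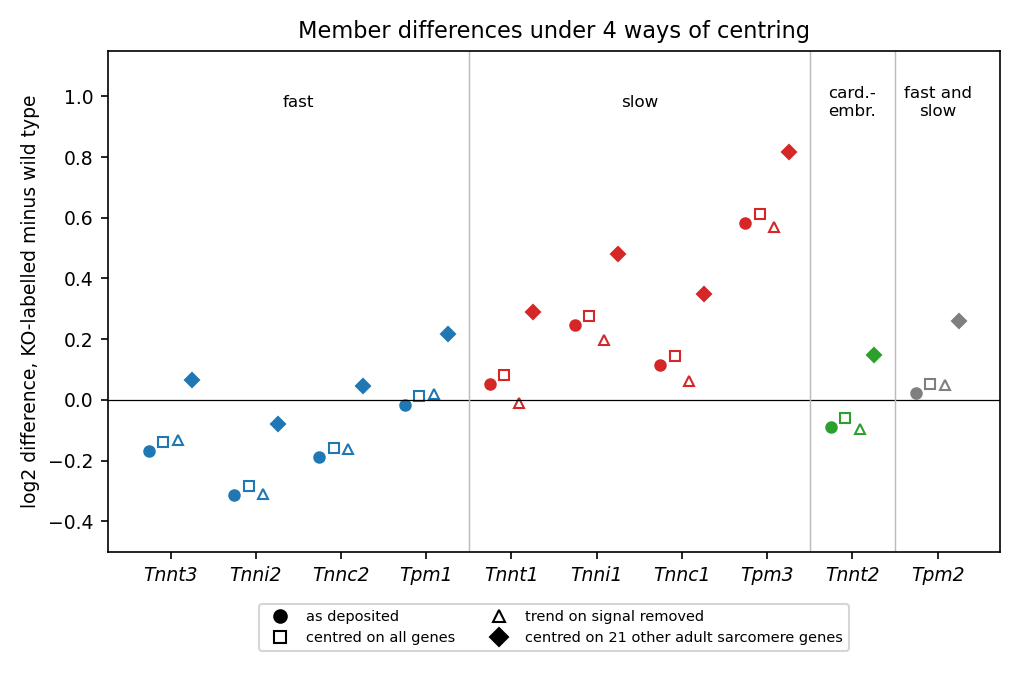
For each member, grouped by isoform class, the vertical axis gives the log2 difference (KO-labelled minus wild type) as deposited and after 3 ways of centring, each with its own marker. The slow members lie above the fast troponins under each; Tnnt1 crosses 0 to -0.0087 with the signal trend removed, Tpm1 crosses 0 under all 3, and Tnnt3, Tnnc2 and Tnnt2 cross it when centred on the 21 sarcomere genes.

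The 5 members with a mean of at least 10 (Tnnt3, Tnni2, Tnnc2, Tpm1 and Tpm2) were also set beside genes of like signal. The 142 measurable genes of that range include these 5 members and other fibre genes such as Acta1, Neb and Myh4, so they are not an independent background. Over the 142 genes, the median difference was -0.024 and the quartiles were -0.19 and 0.18. Their robust SD, taken from the median absolute deviation across genes, was 0.26, against 0.28 over all measurable genes. Of these bright genes, 26.1% differed by as much as Tnni2 and 52.8% by as much as Tnnc2. Differences of the size of Tnni2 and Tnnc2 were thus common among these 142 genes, fibre genes included.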

How the data were processed

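RNA was measured on 2 Affymetrix arrays, 1 per pool of 5 mice. The authors deposited log2 values made by RMA, using Affymetrix Expression Console according to the submitters' processing notes, with no version or setting given. RMA quantile normalization leaves the sorted values of the arrays within 0.139 of each other, so a change shared by most genes cannot be seen. No depth applies to arrays, and their number limits the precision.

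Left out were 1621 probe sets of several genes and 12147 without a symbol. None of the former held a member. The probe set of highest mean stood for a gene (19938 genes). Differences were taken with pandas 2.3.3 and numpy 2.4.6 (Python 3.11.15), with no p-value, and counted past 1.5-fold, 2-fold and 0.32 on the log2 scale. Alternatives were other centrings, a loess trend (statsmodels 0.14.6, span 0.3), other probe sets, floors and fold limits. The counting was tested on simulated data with less noise than the spread across genes and with added differences larger than that of any member. It does not show how well differences of the members' size are counted. Gene symbols and promoters came from RefSeq (GRCm38.p6), and 21698 probe sets with 1 symbol matched it.

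The members and lists were chosen with earlier results of these data known. Beside the members, the rule named up to 3 genes per list with the largest differences among measurable ones, and Mef2a, Acta1, Tnni3 and Tpm4. Myh7, Myl2, Myl3, Csrp3, Neb, Actc1, Ckm, Myh4, Lyz2, Lsp1, Prr33 and Lad1 were named after their values were seen.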

Additional observations from a re-analysis of the deposited data

How the results depend on the processing

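No replicate could be left out with 2 arrays. No paired analysis was possible because each genotype has 1 array and the labels give no replicate numbers. Values were compared with those as deposited and called moved past 0.1 on the log2 scale or across 1.5-fold, and counts and shares of genes past 1.5 times the value as deposited. Of the alternative values, 139 did neither, 22 moved and 9 changed sign. Part of the 139 could not have moved, so their number does not measure how stable the results are. Genes with 1 probe set keep their value under any choice of probe set. Contrasts between genes keep theirs under any centring, and counts of members keep theirs under floors that all members pass. Centred on 21 adult sarcomere genes, the signs of Tnnc2 (0.047), Tnnt3 (0.067), Tnnt2 (0.15), Tpm1 (0.22) and the fast median (0.057) turned, while Tnni2 (-0.078), Tpm2 (0.26), Tnnt1 (0.29), Tnnc1 (0.35), Tnni1 (0.48), Tpm3 (0.82) and the slow median (0.41) shifted up, which the centring itself causes. Centred on all genes, Tpm1 became 0.012 and Tpm3 0.61. Centred on genes with a mean of at least 10, an alternative chosen after seeing the data, they became 0.0071 and 0.61. Under each of these centrings 1 member (Tpm3) was at least 1.5-fold higher in place of 0, as it was with a limit of 0.32 on the log2 scale. With the signal trend removed, Tnnt1 became -0.0087, Tpm1 0.021, Tpm3 minus Tpm1 0.55 and the median of non-muscle actin filament genes 0.54. With the mean of all probe sets Tpm3 was 0.36 and its contrast with Tpm1 0.38, and with its probe set of lowest mean 0.43 and 0.45. Without a floor, 4.25% of genes were at least 1.5-fold higher and 3.10% lower, and among genes with a mean of at least 10, 0.704% were lower. With the floor at the 75th percentile the shares were 8.40% and 1.502%, against 6.45% and 1.90%. With troponins alone, also chosen after seeing the data, the slow median was 0.11 and the fast -0.19. The cause was not tested for the moves with probe set choice, trend or floor.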
